A study of Mus musculus with 6 samples.

Results

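To describe the proliferation programme in the liver of pups with activated human *SRY*, 44 cell cycle and DNA replication genes were followed in liver RNA of 3 hSRY-ON pups and 3 hSRY-OFF pups. The genes were chosen by name, 25 of them acting at G1/S or in DNA replication and 19 in G2 and mitosis (G2/M), and all their probes were read from a liver table of 25697 probes. Of the 44 genes, 39 had a probe, 70 probes in all. *Gins2*, *Cdk4*, *Aurkb*, *Mki67* and *Kif20a* had none under these symbols. A probe was tested when at least 3 of the 6 arrays gave a detection p-value under 0.01. This left 45 probes of 29 genes, and each of the 45 was detected on all 6 arrays. The 25 remaining probes had at most 2 such arrays. They included every probe of 10 genes, namely *Cdc6*, *Pcna*, *Rfc4*, *Prim1*, *Ccna2*, *Ccnb2*, *Ube2c*, *Bub1*, *Tacc3* and *Stmn1*, for which nothing is said about a difference.

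All 6 pups were FVB/N males (strain FVB by the sample labels) aged 6 days after birth, with 3 mice per group per the study's methods. The study's methods define both groups by a single *Signalox-hSRY* transgene at the *H11* locus, in which the ubiquitous CAG promoter drives *DsRed2* flanked by LoxP sites. In hSRY-OFF pups, by that definition, the cassette had not been recombined. Elsewhere the study describes its controls as littermates with *Ddx4-Cre* alone or with no transgene, and the sample labels do not state whether the controls on these arrays carried the cassette. In hSRY-ON pups, Cre recombinase carried over from the oocyte of a *Ddx4-Cre* mother had removed *DsRed2* in the early embryo, so that CAG drives FLAG-tagged human *SRY* and *EGFP* in principle in every cell type. The hSRY-ON pups used for the arrays did not themselves carry *Ddx4-Cre*. The model therefore is not restricted to hepatocytes, and no probe for human *SRY* was used here. The study also reports that hSRY-ON pups hardly suckled, lacked milk in the stomach, grew more slowly than controls and had fatty livers. The parts of *SRY* itself and of feeding, growth or illness in the differences below were not tested, and this design does not separate them.

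Levels are log2 intensities after background correction and quantile normalization, and differences are hSRY-ON minus hSRY-OFF on that log2 scale, with the standard error (SE) of the limma fit. Probes were called at a Benjamini-Hochberg adjusted p under 0.05 over all 10734 tested probes. The hepatocyte genes *Ttr*, *Ahsg*, *Trf* and *Apoa1* were detected on all 6 arrays, and each array detected between 40.2% and 41.9% of its probes. Whole liver at this age holds hepatocytes together with blood-forming cells, so fewer cells of a type and less RNA per cell cannot be told apart.

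A cell enters the cycle when D-type cyclins with their kinases release E2F factors from the retinoblastoma proteins. E2F then turns on cyclin E, the MCM helicase, the replication fork proteins and the enzymes that make deoxynucleotides. Mitotic genes rise later, through promoters that often combine CCAAT boxes with a cell cycle homology region (CHR). Hepatocytes of newborn mice still divide, and cyclin D1 is known in the liver as the cyclin whose level accompanies entry of hepatocytes into the cycle.

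The promoters of the 2 classes are shown first, since the words they hold differ between G1/S and G2/M members and were found without the array values. Promoter windows of 250 bases before and 50 bases after the start site were taken from RefSeq (build GRCm38.p6), which held 37 windows for 35 of the 44 members. The table had no window for *Ccnd1*, *Ccnd2*, *Ccne2*, *Mcm4*, *Gins2*, *Ccna2*, *Aurkb*, *Stmn1* and *Kif20a*. Each window was searched on both strands for the E2F words TTTGGCGC, TTTCGCGC and TTTCCCGC, the CHR word TTTGAA, the CCAAT box and the SRY/SOX word AACAAT, and words that share bases were counted separately. The 250 bases before the start of 5 members are printed 5′ to 3′ along the gene, in lower case with words found on either strand in capitals. *Mcm6* stands for the helicase genes with E2F words, *Tk1* and *Tyms* are the called members with a window and no word, and *Kif11* and *Top2a* are mitotic genes with CHR words.

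*Mcm6* (chr1:128359706-128359955, minus strand): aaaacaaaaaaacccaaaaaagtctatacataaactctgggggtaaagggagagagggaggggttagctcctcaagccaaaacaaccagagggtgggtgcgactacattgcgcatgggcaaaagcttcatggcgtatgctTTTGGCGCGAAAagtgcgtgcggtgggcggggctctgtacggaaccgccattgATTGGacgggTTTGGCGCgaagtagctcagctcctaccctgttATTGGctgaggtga
*Tk1* (chr11:117826015-117826264, minus strand): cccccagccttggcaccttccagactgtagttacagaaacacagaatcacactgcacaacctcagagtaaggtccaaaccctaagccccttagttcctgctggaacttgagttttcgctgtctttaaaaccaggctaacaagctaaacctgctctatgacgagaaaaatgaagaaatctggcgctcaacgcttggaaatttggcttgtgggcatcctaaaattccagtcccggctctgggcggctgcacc
*Tyms* (chr5:30073626-30073875, minus strand): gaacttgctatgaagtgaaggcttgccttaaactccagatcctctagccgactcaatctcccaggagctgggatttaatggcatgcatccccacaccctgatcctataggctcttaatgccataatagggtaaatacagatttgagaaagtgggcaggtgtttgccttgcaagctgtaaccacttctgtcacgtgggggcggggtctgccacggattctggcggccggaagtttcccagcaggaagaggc
*Kif11* (chr19:37376132-37376381, plus strand): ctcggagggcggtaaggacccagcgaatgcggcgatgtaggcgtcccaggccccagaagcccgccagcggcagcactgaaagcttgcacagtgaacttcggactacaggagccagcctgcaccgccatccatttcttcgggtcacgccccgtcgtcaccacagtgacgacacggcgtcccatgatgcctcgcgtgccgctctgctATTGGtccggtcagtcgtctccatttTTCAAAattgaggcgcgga
*Top2a* (chr11:99024190-99024439, minus strand): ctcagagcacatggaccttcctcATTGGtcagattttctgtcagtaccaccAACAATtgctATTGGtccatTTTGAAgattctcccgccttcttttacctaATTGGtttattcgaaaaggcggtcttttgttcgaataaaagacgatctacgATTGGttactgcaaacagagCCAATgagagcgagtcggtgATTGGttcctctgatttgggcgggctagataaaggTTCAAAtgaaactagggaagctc

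In *Mcm6* 2 E2F words on opposite strands overlapped in the first capital run, which begins 110 bases before the start, and another E2F word began 47 bases before it. The CHR word of *Kif11* began 19 bases before the start and its CCAAT box 45 bases before it, and one of the 2 CHR words of *Top2a* began 23 bases before its start. E2F words were present in 8 of 22 G1/S windows (36.4%) and in 0 of 15 G2/M windows, against 1.84% of all 32851 windows in the table. CHR words were present in 10 of 15 G2/M windows (66.7%) and in 1 of 22 G1/S windows, that of *Mcm2*, against 17.9% of all windows. A CCAAT box was found in 80% of G2/M windows, in 54.5% of G1/S windows and in 37.4% of all windows. The SRY/SOX word was found in 1 member window, that of *Top2a* at 199 bases before the start, and in 10.7% of all windows. These are letter matches in short windows and do not show binding.

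**Figure D1:**
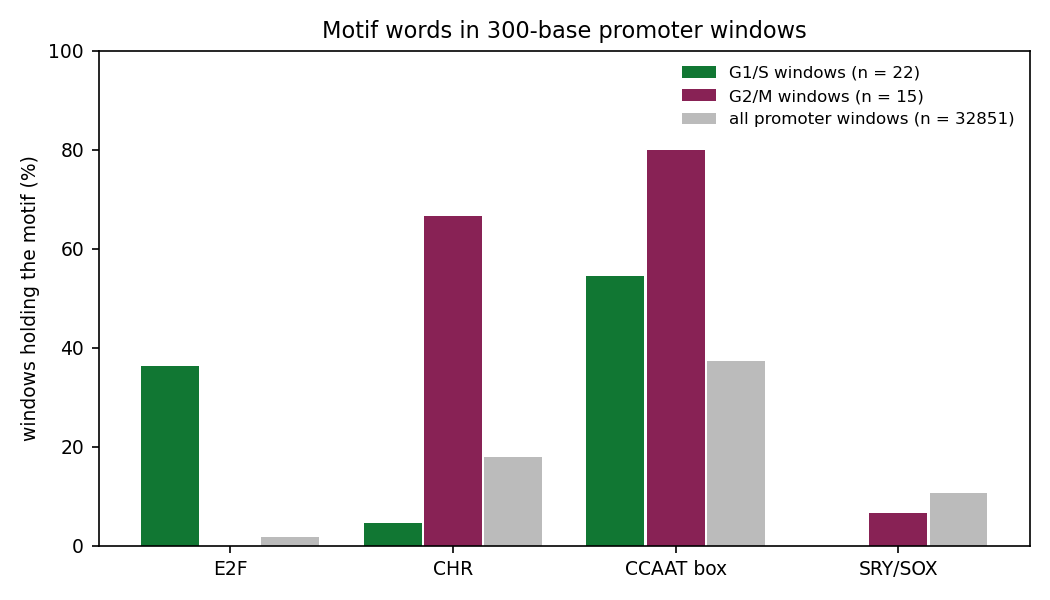
Share of 300-base promoter windows that hold at least 1 match to a motif, in percent, for 22 windows of G1/S members, 15 windows of G2/M members and all 32851 windows of the table. E2F words appear in G1/S and not in G2/M windows, and CHR words in 66.7% of G2/M windows and 4.55% of G1/S windows.

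Over all members, 10 of 45 probes (22.2%) were called, where 33.1% of all tested probes were called. Of the 10, 9 were lower in hSRY-ON liver (20%, background 17.3%) and 1 was higher (2.22%, background 15.8%). The lower ones were all 3 probes of *Ccnd1*, both tested probes of *Tk1*, both tested probes of *Tyms*, and the probes of *Ccne2* and *Kif11*. The higher one was *Ccnd2*. The share called lower thus lay near the background. The fitted difference was below 0 for 37 of the 45 probes, with a median of -0.38, where the median over all tested probes was 0.017. In 13 of the 45 every hSRY-ON value was below every hSRY-OFF value, with a background of 24.6%, and in 1 every hSRY-ON value was above, with a background of 25.4%.

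By class, 8 of 29 G1/S probes fell (27.6%, background 17.3%), 1 rose (3.45%, background 15.8%) and 20 were not called. Their median difference was -0.40. The 8 probes that fell belonged to 4 of the 19 tested G1/S genes, where 1507 of all 8225 tested genes had a probe called lower. Counted by gene, the G1/S share was thus closer to the background. Among the 16 G2/M probes 1 fell (6.25%), none rose (0 probes) and 15 were not called, with a median of -0.37. The medians of the 2 classes were therefore close. Most called probes were G1/S, as were 29 of the 45 tested probes, and whether the classes differ was not tested.

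**Figure D2:**
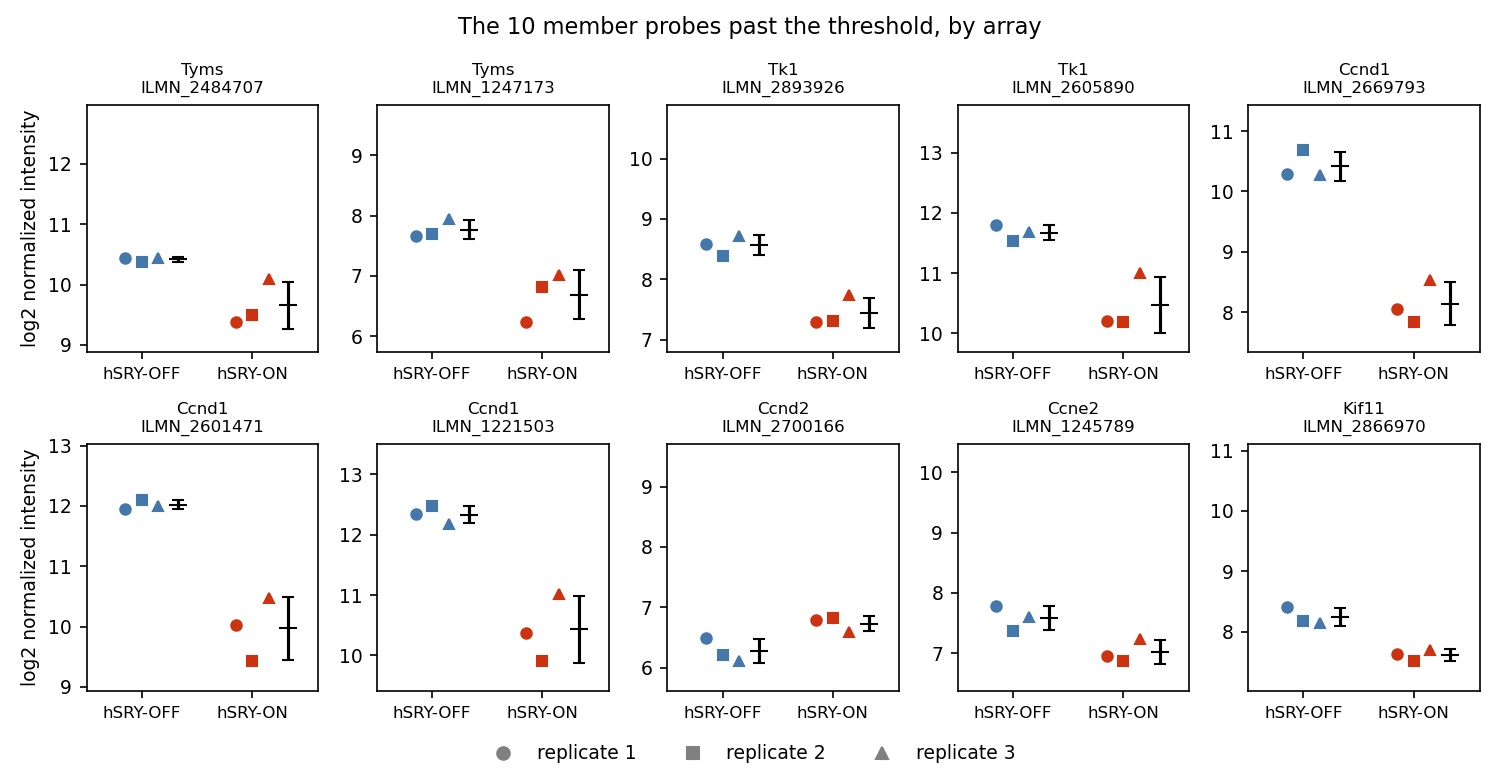
Log2 normalized intensity (vertical axis) of the 10 called member probes on each array, hSRY-OFF in blue and hSRY-ON in red, with symbols for replicates 1, 2 and 3 and the mean ± SD (n = 3) beside each group. All vertical axes span the same number of log2 units; the 2 groups do not overlap in any panel, and hSRY-ON replicate 3 is the highest hSRY-ON array in the 9 panels of probes that fell.

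Among the G1 regulators, *Ccnd1*, which encodes cyclin D1, fell most. Its probe ILMN_2669793 read 10.28, 10.69 and 10.27 on the 3 hSRY-OFF arrays and 8.04, 7.83 and 8.53 on the 3 hSRY-ON arrays. The groups were far apart, with a gap larger than the spread within either of them. The difference was -2.28 ± 0.21 (SE), a 4.85-fold lower level (limma adjusted p = 0.000451). ILMN_2601471 read 11.95, 12.10 and 12.003 in hSRY-OFF and 10.02, 9.43 and 10.47 in hSRY-ON, a difference of -2.05 ± 0.25 (adjusted p = 0.00127). ILMN_1221503, the brightest *Ccnd1* probe, read 12.34, 12.48 and 12.19 in hSRY-OFF and 10.37, 9.91 and 11.02 in hSRY-ON, a difference of -1.91 ± 0.27 (adjusted p = 0.00232). The 3 probes placed the arrays in the same order within hSRY-ON, with replicate 2 lowest and replicate 3 highest. They read the same RNA and are not independent of each other.

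The other D-type cyclins did not follow *Ccnd1*. *Ccnd2*, which encodes cyclin D2, read 6.50, 6.21 and 6.11 in hSRY-OFF and 6.78, 6.82 and 6.58 in hSRY-ON. The groups did not overlap, but the nearest values were only a small step apart. The difference was 0.46 ± 0.15 (adjusted p = 0.0473), and the call was lost under 13 of 18 alternative settings, including the removal of any array other than hSRY-ON replicate 3 (adjusted p from 0.0325 to 0.141 over all settings). The 18 settings include leaving out *Ccnd1* after the fit, which by design keeps the values of all other probes unchanged. The 2 tested probes of *Ccnd3*, which encodes cyclin D3, differed by 0.33 ± 0.17 and 0.32 ± 0.19 and were not called (adjusted p = 0.182 and 0.237).

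The E-type cyclins pair with CDK2 at the entry into S phase. *Ccne2* read 7.78, 7.38 and 7.60 in hSRY-OFF and 6.96, 6.87 and 7.24 in hSRY-ON. It fell by 0.56 ± 0.16 (adjusted p = 0.0316), with groups that did not overlap. The call was lost without hSRY-OFF replicate 1 (adjusted p = 0.12), without hSRY-OFF replicate 3 (0.0836), without hSRY-ON replicate 1 (0.0878) and without hSRY-ON replicate 2 (0.0762). *Ccne1* differed by -0.48 ± 0.23 and was not called (adjusted p = 0.139), and it was called without hSRY-OFF replicate 2 (adjusted p = 0.0371). *E2f1*, itself a member of the E2F family, differed by -0.47 ± 0.20 (adjusted p = 0.108). The 4 tested probes of *Cdk2* had differences from -0.28 to -0.05, none of them called.

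Enzymes of nucleotide supply split into a pair that fell and a pair that did not. *Tk1* encodes thymidine kinase 1, which salvages thymidine. Its brighter probe, ILMN_2605890, read 11.79, 11.54 and 11.68 in hSRY-OFF and 10.21, 10.19 and 11.003 in hSRY-ON, and its dimmer probe, ILMN_2893926, read 8.58, 8.39 and 8.72 against 7.29, 7.31 and 7.73. In both probes the hSRY-ON arrays lay below all hSRY-OFF arrays. The falls were 1.20 ± 0.23 and 1.12 ± 0.16 on the log2 scale (adjusted p = 0.0076 and 0.00281), or 2.30-fold and 2.17-fold.

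*Tyms* encodes thymidylate synthase, the enzyme that makes thymidylate from deoxyuridylate. ILMN_2484707 read 10.44, 10.37 and 10.44 in hSRY-OFF and 9.38, 9.49 and 10.09 in hSRY-ON. ILMN_1247173 read 7.67, 7.69 and 7.95 in hSRY-OFF and 6.24, 6.81 and 7.01 in hSRY-ON. Neither probe had overlapping groups, and in both replicate 3 was the hSRY-ON array nearest to the controls. The falls were 0.76 ± 0.19 (adjusted p = 0.0219) and 1.08 ± 0.21 (adjusted p = 0.00843). The first of these calls was lost without any 1 array other than hSRY-ON replicate 3, at adjusted p values between 0.0557 and 0.0771.

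*Rrm1* and *Rrm2* encode the large and the small subunit of ribonucleotide reductase, which makes deoxynucleotides from ribonucleotides. *Rrm1* differed by 0.11 ± 0.14 (adjusted p = 0.602), and the probes of *Rrm2* by -0.05 ± 0.31 and 0.07 ± 0.24 (adjusted p = 0.923 and 0.839). In all 3 probes the groups overlapped. Whether *Tk1* and *Tyms* differ from *Rrm1* and *Rrm2* in their response was not tested.

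The MCM proteins form the replicative helicase, and *Cdt1* loads it onto origins. All 8 tested probes of these 7 genes had differences below 0, from -0.68 for *Mcm7* to -0.17 for *Mcm5*, and none of them (0 probes) was called, although 3 had an unadjusted limma p under 0.05. *Mcm4*, the brightest probe of the group, read 11.73, 11.37 and 11.61 in hSRY-OFF and 10.80, 11.09 and 11.41 in hSRY-ON. Replicate 3 of hSRY-ON lay above replicate 2 of hSRY-OFF, so the groups overlapped. The difference was -0.47 ± 0.18 (adjusted p = 0.0851). Of the *Mcm6* probes, ILMN_1233857 had groups that did not overlap and differed by -0.52 ± 0.19 (adjusted p = 0.074), and ILMN_2803399 by -0.23 ± 0.23 (adjusted p = 0.464). *Mcm2* and *Mcm3* differed by -0.36 ± 0.24 and -0.40 ± 0.23. *Mcm7* (adjusted p = 0.064) was called without hSRY-OFF replicate 2 (adjusted p = 0.0286).

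At the replication fork, *Pold1*, which encodes the catalytic subunit of DNA polymerase delta, was the only member tested. It read 9.14, 9.002 and 9.40 in hSRY-OFF and 8.43, 8.67 and 8.98 in hSRY-ON. The highest hSRY-ON value lay just under the lowest hSRY-OFF value. The difference of -0.49 ± 0.18 did not pass the threshold (adjusted p = 0.0744).

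Of the G2/M members, *Kif11* fell. It encodes the kinesin that pushes spindle poles apart. It read 8.41, 8.17 and 8.14 in hSRY-OFF and 7.64, 7.51 and 7.70 in hSRY-ON, and its hSRY-ON arrays were close together. The fall was 0.63 ± 0.13 (adjusted p = 0.0101), and it was called under all 18 alternative settings at the threshold of 0.05, with adjusted p values from 0.00356 to 0.0486. These settings include leaving out *Ccnd1*, which could not change the value of another probe. *Top2a*, which encodes the topoisomerase that untangles replicated chromosomes, read 10.52, 10.22 and 10.29 in hSRY-OFF and 9.46, 9.61 and 10.16 in hSRY-ON. Its groups did not overlap, and its difference of -0.60 ± 0.20 missed the threshold (adjusted p = 0.056). It was called under 7 of 18 alternative settings, with adjusted p values from 0.00547 to 0.176 over all of them. *Nusap1*, a microtubule-binding protein of the spindle, had a difference of 0.46 ± 0.19 (adjusted p = 0.096), and it was called higher without hSRY-OFF replicate 3 (adjusted p = 0.0269).

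Of the 7 probes of mitotic kinases and their partners, 6 had differences below 0 and 1 above, and none (0 probes) passed the test, although 2 had an unadjusted limma p under 0.05. *Aurka*, which encodes the spindle pole kinase Aurora A, differed by -0.70 ± 0.26 (adjusted p = 0.0741). The 3 probes of *Birc5*, which encodes the passenger protein survivin, differed by -0.38 to -0.54. The brightest of them, ILMN_2632712, read 11.51, 11.20 and 11.43 in hSRY-OFF and 10.74, 10.78 and 11.46 in hSRY-ON. Replicates 1 and 2 of hSRY-ON lay below all controls and replicate 3 lay among them. *Plk1*, encoding polo-like kinase 1, differed by -0.33 ± 0.19, *Bub1b*, a spindle checkpoint gene, by -0.22 ± 0.21, and *Cdca8*, encoding the passenger protein borealin, by 0.06 ± 0.19.

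None of the 6 probes of mitotic cyclins and their destruction was called (0 probes, and 0 with an unadjusted limma p under 0.05). *Cdc20* encodes the activator of the anaphase-promoting complex, and its brightest probe, ILMN_2867899, read 10.94, 10.56 and 10.77 in hSRY-OFF and 10.16, 10.28 and 10.80 in hSRY-ON. Its 4 probes differed by -0.53 to -0.13, none of them called. *Ccnb1*, encoding cyclin B1, read 6.23, 5.90 and 5.99 in hSRY-OFF and 5.87, 6.09 and 7.34 in hSRY-ON with probe ILMN_2659052. Replicate 3 of hSRY-ON stood apart from the other 5 arrays there, and the difference of 0.39 ± 0.36 turned to -0.062 without it.

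**Figure D3:**
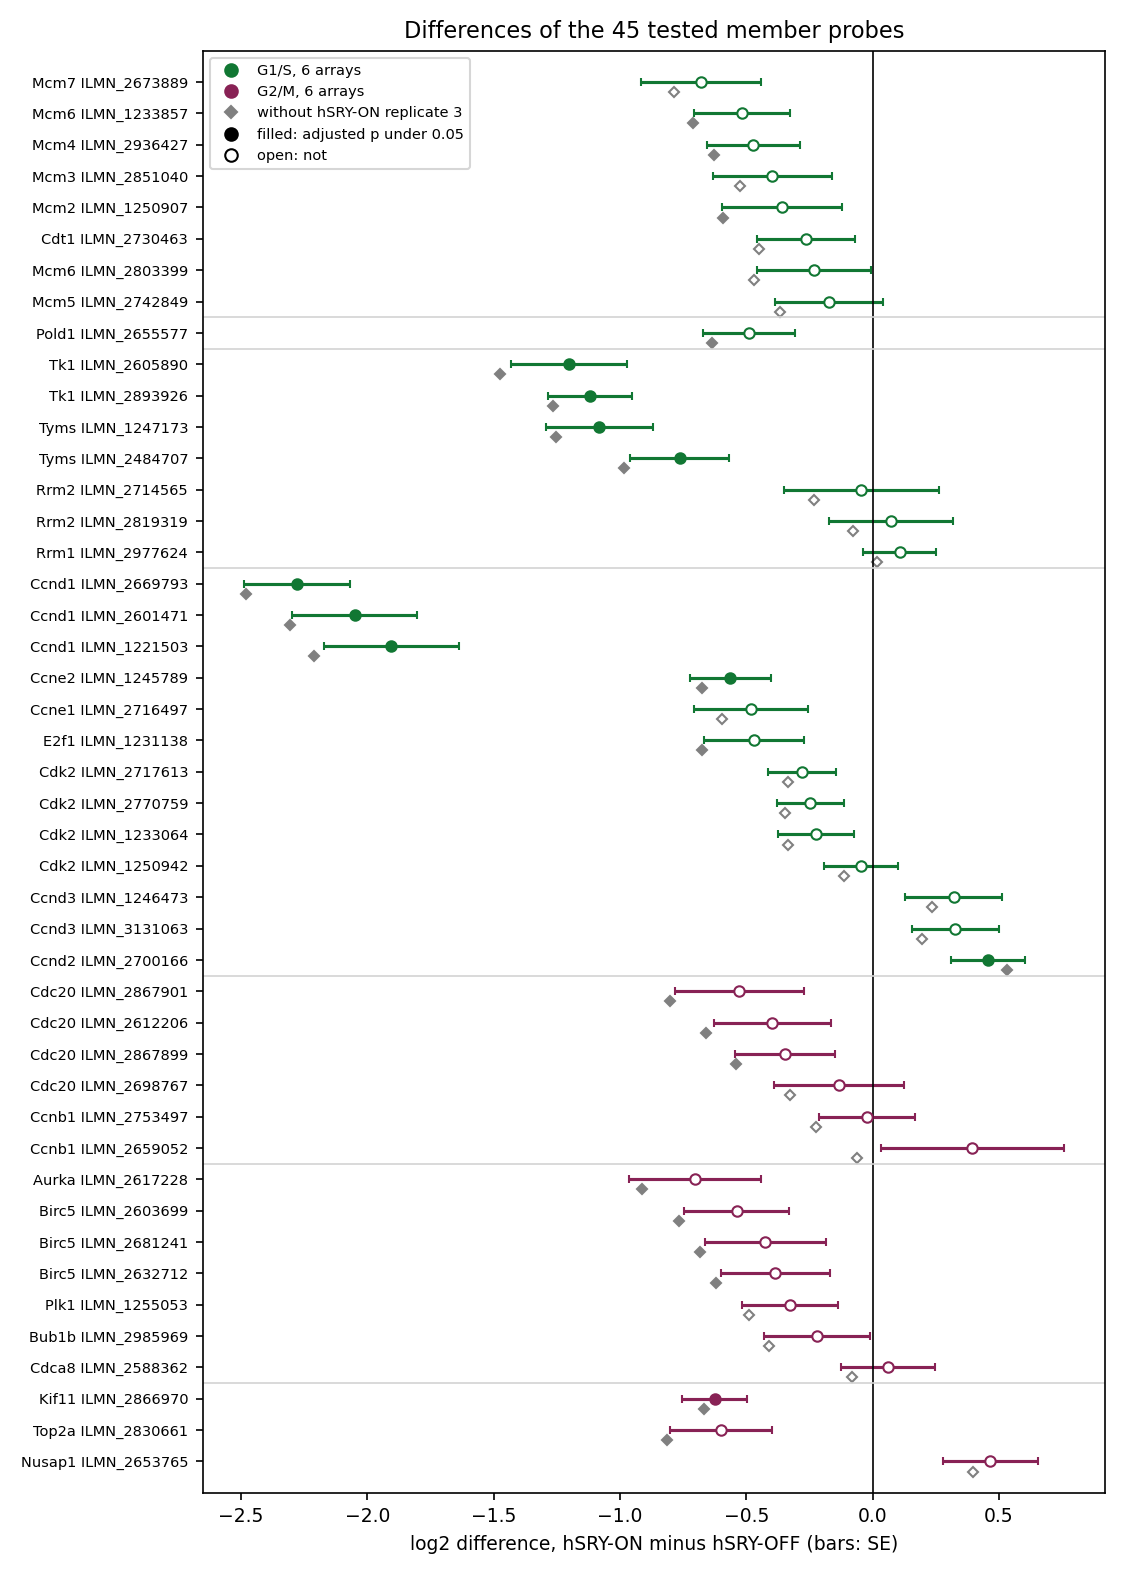
Difference in log2 intensity, hSRY-ON minus hSRY-OFF, of the 45 tested member probes grouped by role, with SE bars (3 arrays per group), G1/S in green and G2/M in purple. Grey diamonds give the difference without hSRY-ON replicate 3, and filled symbols have an adjusted p under 0.05: 10 probes with all arrays and 23 without that array.

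The order of the arrays was similar across many members. hSRY-ON replicate 3 was the highest of the hSRY-ON arrays at 44 of the 45 member probes (97.8%), against 38.7% of all tested probes. Among the controls, hSRY-OFF replicate 2 was the lowest at 34 of 45 (75.6%), against 33.5% of all tested probes. The highest control differed between the classes, being hSRY-OFF replicate 3 at 20 of 29 G1/S probes and hSRY-OFF replicate 1 at 13 of 16 G2/M probes. Averaged over the 29 G1/S probes and set relative to the hSRY-OFF mean, the hSRY-ON arrays stood at -0.75, -0.59 and -0.21 and the hSRY-OFF arrays at 0.03, -0.16 and 0.13. For the 16 G2/M probes the hSRY-ON arrays stood at -0.51, -0.44 and 0.14 and the hSRY-OFF arrays at 0.18, -0.22 and 0.03. The G1/S mean of every hSRY-ON array was below those of all controls, while the G2/M mean of hSRY-ON replicate 3 lay within the range of the controls.

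The mean difference was -0.52 for G1/S and -0.27 for G2/M, so that G1/S stood 0.25 lower in hSRY-ON. The quantity G1/S minus G2/M was -0.24, -0.15 and -0.36 on the hSRY-ON arrays and -0.15, 0.06 and 0.10 on the hSRY-OFF arrays, and hSRY-ON replicate 2 and hSRY-OFF replicate 1 were about level. It shrank to -0.068 when the 3 *Ccnd1* probes were left out, a step chosen after their values were seen.

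Without hSRY-ON replicate 3, 22 of the 45 probes were called lower (48.9%), where 20.2% of the 10494 probes tested in that setting were, and 1 was called higher, *Ccnd2*, where 17.4% were. By class, 13 of 29 G1/S probes (44.8%) and 9 of 16 G2/M probes (56.2%) were then called lower, with medians of -0.59 and -0.58. The added calls were *Mcm2*, *Mcm4*, *Mcm6* (1 probe), *Pold1* and *E2f1* among G1/S and *Aurka*, *Top2a*, 3 probes of *Birc5* and 3 of *Cdc20* among G2/M. The larger called share in G1/S than in G2/M was therefore seen with that array and not without it, while *Ccnd1*, *Tk1*, *Tyms*, *Ccne2* and *Kif11* were called lower with and without it. That array was left out as 1 of 6 such settings, and no sample label sets it apart. It was the highest hSRY-ON array at 97.8% of member probes, against 38.7% of all tested probes. Leaving it out therefore lowers the hSRY-ON mean of members more often than that of other probes. The larger share called lower in this setting follows in part from that and is not separate evidence of a fall.

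Markers of some blood cells, and the growth arrest genes given further below, also set hSRY-ON replicate 3 apart from the other hSRY-ON arrays. The part of blood cells in the values of the members was not tested. For neutrophils and their precursors (20 probes, 1 called higher and none lower), the mean relative to the hSRY-OFF mean was -0.52, -0.26 and 1.33 on the hSRY-ON arrays and 0.04, -0.18 and 0.14 on the hSRY-OFF arrays. *Mpo*, encoding the granule enzyme myeloperoxidase, read 10.97, 10.57 and 10.67 in hSRY-OFF and 10.97, 11.14 and 12.76 in hSRY-ON with its brightest probe, and *Mmp8* was detected on no array (0 of 6). The list was split, with 10 of its 20 differences below 0 and 10 not, from -1.16 to 1.19. *Mpo* was on the higher side. *Ngp*, on the lower side, read 12.83, 12.59 and 12.85 in hSRY-OFF and 11.57, 11.98 and 13.63 in hSRY-ON. The summed linear intensity of the list was 43974 to 118710 in hSRY-ON and 54200 to 64056 in hSRY-OFF. hSRY-ON replicate 3 had the highest level of this list among all 6 arrays, and its members were the highest among the hSRY-ON arrays only.

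Lymphoid markers fell (5 of 6 probes lower, 83.3%, background 17.3%), with means of -2.22, -2.07 and -0.81 on the hSRY-ON arrays and 0.01, -0.14 and 0.13 on the hSRY-OFF arrays. The probes of *Vpreb1*, *Vpreb3* and *Cd3e* were each detected on 1 hSRY-ON array, so the means and sums of the list include values below detection. Their differences were -2.36, -2.28 and -1.91. With undetected arrays set at the detection floor these became -2.03, -1.85 and -1.30. *Cd79b*, a subunit of the B cell receptor, read 8.43, 8.45 and 8.94 in hSRY-OFF and 7.24, 6.996 and 7.94 in hSRY-ON with its brighter probe, and *Pax5* was detected on no array. The summed intensity of the list was 284 to 905 in hSRY-ON and 1329 to 1663 in hSRY-OFF. Replicate 3 was again the hSRY-ON array nearest to the controls.

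Erythroid markers stood in another order. Of their 22 probes, 7 rose and none fell (0 probes), with means of 0.93, 0.60 and 0.88 on the hSRY-ON arrays and -0.11, -0.49 and 0.60 on the hSRY-OFF arrays, and summed intensities of 124640 to 146800 against 90877 to 128900. hSRY-OFF replicate 2 had the lowest erythroid level of all arrays and was also the control with the lowest members. This was not particular to erythroid markers. That array was also the lowest control for the neutrophil precursor (-0.18), lymphoid (-0.14) and megakaryocyte (-0.25) lists, and the highest for the macrophage list (0.13). Of the 10 megakaryocyte probes, 9 rose. Of the 11 hepatocyte probes, 4 fell, those of *Alb* and *Ttr* and both of *Serpina1a*. Of the macrophage probes, 4 fell and 1 rose out of 12, with means of -0.47, -0.49 and -0.12 on the hSRY-ON arrays. Replicate 3 was nearest to the controls in this list too.

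**Figure D4:**
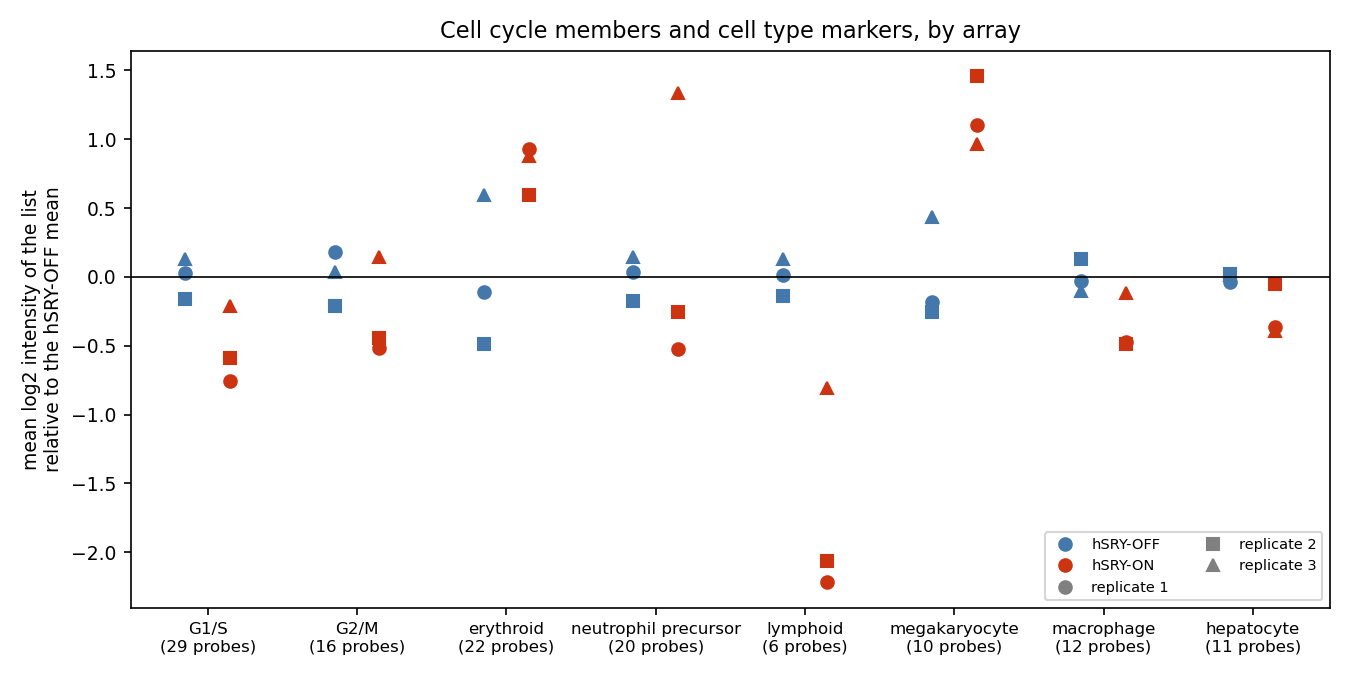
Mean log2 intensity of each probe list on each array relative to the hSRY-OFF mean of that list, hSRY-OFF in blue and hSRY-ON in red, with symbols for the replicates. The G1/S and G2/M members have hSRY-ON replicate 3 highest among hSRY-ON, as have the neutrophil precursor markers (1.33) and the lymphoid markers (-0.81), while the erythroid markers are above the control mean on all 3 hSRY-ON arrays.

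Cell cycle genes outside the 44 were taken from lists written for the pathway, of which 164 probes of 120 genes were tested. Of these, 15 were called higher (9.15%, background 15.8%) and 32 lower (19.5%, background 17.3%), so that the share called lower was near the background. Other replication genes had 14 of 40 probes lower (35%) and none higher (0 probes), with a median of -0.35, and other mitosis genes had 13 of 72 lower (18.1%), 1 higher and a median of -0.23. Other regulators of G1/S had 5 higher and 3 lower of 22 probes, and no probe of the checkpoint kinases (0 of 10) was called by limma, with an unadjusted p under 0.05 for 0 of them as well. The largest falls were those of *Cenpm*, which encodes a centromere protein, with differences of -2.63, -2.29 and -2.17 in 3 probes (adjusted p = 0.00118, 0.000565 and 0.000665). *Mcm10*, a helicase cofactor at origins, read 8.51, 8.21 and 8.76 in hSRY-OFF and 6.71, 6.86 and 7.89 in hSRY-ON with probe ILMN_2679464, a difference of -1.34 ± 0.32 (adjusted p = 0.0166).

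Inhibitors of cyclin-dependent kinases moved in opposite directions. *Cdkn1a* encodes p21, which restrains cyclin-CDK complexes and is a known target of p53. Its brightest probe, ILMN_2634083, read 9.71, 9.60 and 9.69 in hSRY-OFF and 11.71, 11.55 and 11.26 in hSRY-ON, and all 3 probes rose, by 1.89 ± 0.19, 1.84 ± 0.15 and 1.71 ± 0.12 (adjusted p = 0.000698, 0.000264 and 0.000188). *Cdkn1c*, which encodes the growth-restraining inhibitor p57 and is an imprinted gene, read 13.41, 13.23 and 13.76 in hSRY-OFF and 11.80, 11.78 and 11.66 in hSRY-ON. It fell by 1.72 ± 0.16, or 3.30-fold (adjusted p = 0.000438). Both genes had groups that were far apart. The hSRY-ON values were less tight at *Cdkn1a* ILMN_2846775, with 10.33, 10.26 and 9.64. Replicate 3 was the hSRY-ON array nearest to the controls at all 3 *Cdkn1a* probes. At ILMN_2846776 the step was small, 9.73 against 9.74 for replicate 2. The pattern of hSRY-ON replicate 3 seen in the members was not present in *Cdkn1c*, where that array was the lowest. *Cdkn2c* differed by -0.63 ± 0.24 (adjusted p = 0.0809) and *Cdkn2d* by 0.12 ± 0.20 (adjusted p = 0.673), and neither was called.

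Among growth arrest genes, 6 of 14 probes rose (42.9%, background 15.8%) and 1 fell (7.14%, background 17.3%). The mean of this list relative to the hSRY-OFF mean was 0.83, 0.77 and 0.43 on the hSRY-ON arrays. Replicate 3 was thus nearest to the controls in genes that rose as well. The kinase inhibitor list stood at 0.57, 0.48 and 0.56, but this mean joins the rise of *Cdkn1a* with the fall of *Cdkn1c*. It therefore does not rank the hSRY-ON arrays by nearness to the controls. The reason for the position of replicate 3 was not tested. *Gadd45b*, a stress-induced growth arrest gene, read 5.46, 6.63 and 6.20 in hSRY-OFF and 8.04, 8.52 and 7.47 in hSRY-ON. It rose by 1.91 ± 0.35 (adjusted p = 0.00664), or by 1.80 with the 1 undetected hSRY-OFF array set at its detection floor. *Myc*, a transcription factor that promotes entry into the cycle, was not detected on any hSRY-OFF array and was detected on all 3 hSRY-ON arrays with probe ILMN_2623526. The group means were 5.27 and 7.15, a fitted difference of 1.88 ± 0.29 (limma adjusted p = 0.0033). That fit used hSRY-OFF values below detection, and the probe passed the filter through the hSRY-ON arrays alone. As a bound, to which this p-value does not belong, the level in hSRY-ON was at least 2.65-fold higher. A bound was used because no hSRY-OFF array measured the probe: the hSRY-ON mean was set against the higher of the probe's own signal and the lowest detected signal on each hSRY-OFF array.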

How the data were processed

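Liver RNA of 3 hSRY-ON pups and 3 hSRY-OFF pups was amplified to biotinylated cRNA, which the authors measured on Illumina MouseRef-8 v2.0 BeadChips. The deposited table gives, per probe and array, a linear bead intensity that the authors had not normalized (lowest deposited intensity 108) and a detection p-value deposited beside it. Scanner software, scan dates and slides are not given in the sources used here. Every value column matched 1 array (0 columns without a sample), and groups came from the labels.

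Background was removed from the deposited intensities with limma 3.58.1 in R 4.3.3 (nec with the detection p-values, offset 16). The corrected intensities were quantile normalized, and log2 values of the result were taken. Probes that at least 3 of the 6 arrays detected (detection p below 0.01) were tested with lmFit and eBayes without covariates, two-sided, with Benjamini-Hochberg adjustment over the 10734 tested probes and a threshold of 0.05. The methods name TCC, a count tool, which was not applied to intensities. Probes of a gene were tested separately, and levels were not compared between probes. The procedure was tested on simulated data with 1000 changes of 1 on the log2 scale, spread over 5 runs. Each run had 11600 to 12000 tested probes, so a far smaller share was changed than the 33.1% called here. The changes were placed in brighter probes, and the noise was independent between probes. Under these settings the procedure recovered 57.1% of the changes, and 7.31% of its calls were false. Both shares may differ for the real arrays. A probe that was not called is therefore not shown to be unchanged. With 3 arrays per group their number limits the precision, and the offset shrinks differences of dim probes. The p-values measure the spread between mice.

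The members, the pathway and marker lists, and the tests were chosen with earlier results of these data known. Values on every array are given for called members and for the brightest probe of each role, and a few other members are given in the same way after their values were seen. Of the pathway lists, up to 5 called probes per direction with the largest differences and all tested kinase inhibitors are named. Alternatives covered the background correction, offset, scaling, filter, probe choice, variance model, array weights, threshold, replicate block and each array left out.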

Additional observations from a re-analysis of the deposited data

How the results depend on the processing

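All 3 *Ccnd1* probes, both *Tk1* probes, 1 *Tyms* probe (ILMN_1247173) and *Kif11* were called lower under every alternative at the threshold of 0.05 in which they were tested. At an adjusted p under 0.01, 6 member probes were called, 0 of them higher and 0 of them G2/M. Over all alternatives, 151 of 173 values of called probes stayed called and 22 lost the call, and 45 of 618 values of uncalled probes gained one. These counts include the setting without *Ccnd1*, in which the values of all other probes were fixed at those of the main fit. Median scaling, which moved the median difference of all tested probes from 0.017 to -0.038, gave 16 called members, 16 lower and 0 higher, with 4 in G2/M. Array weights gave 28 called, 26 lower and 2 higher, 16 lower in G1/S and 10 in G2/M. With 1 probe per gene, 6 were called, 5 lower and 4 of those in G1/S. No probe was called higher (0) with no background correction, normexp at offset 50, an offset of 50, no filter, detection at 0.05, the trended robust variance or the replicate block, and G2/M then had 2 lower calls under the first 3 of these and the trended variance. The cause of these changes was not tested. Among the alternatives, the share of all tested probes called was computed only without hSRY-ON replicate 3. The other member counts, here and below, have no background beside them. A change in them cannot be told apart from a change across the whole table.

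Leaving out 1 array at a time gave 7 to 23 called members, 7 to 22 lower and 0 to 1 higher, with 6 to 13 lower in G1/S and 1 to 9 in G2/M, the highest of each without hSRY-ON replicate 3. With *Ccnd1* left out, a step added after seeing the data, 5 G1/S probes were lower and G1/S minus G2/M was -0.068. The uncalled values that changed sign under array weights were *Cdca8* at -0.11, *Rrm1* at -0.045 and *Rrm2* ILMN_2819319 at -0.10. Of the uncalled values, those that changed sign when 1 array was left out ranged from -0.062 to 0.67 for *Ccnb1* ILMN_2659052, from -0.23 to 0.094 for *Ccnb1* ILMN_2753497, from -0.35 to 0.055 for *Cdc20* ILMN_2698767, from -0.082 to 0.17 for *Cdca8* ILMN_2588362, from -0.11 to 0.058 for *Cdk2* ILMN_1250942, from -0.37 to 0.014 for *Mcm5* ILMN_2742849, from -0.33 to 0.25 for *Rrm2* ILMN_2714565 and from -0.17 to 0.22 for *Rrm2* ILMN_2819319. Same-numbered samples of the 2 groups had deviations that correlated at 0.025, 0.096 and 0.052, so the numbers were not taken to pair them. With the replicate block 9 members were called and *Ccnd2* was lost (adjusted p = 0.0541).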
